A study of Mus musculus with 26 samples.

Results

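Aminoacyl-tRNA synthetases are the enzymes that join each amino acid to its tRNA. They were followed in macrophages of mouse mammary tumours, in the whole mRNA of the cells and in the mRNA that sat on polysomes. The set was chosen by gene name and held 35 genes, 20 of cytosolic enzymes and 15 of mitochondrial enzymes, whose names end in 2. Of these, 31 had a row of their own among the 19549 gene rows of the deposited count tables, namely 17 cytosolic and 14 mitochondrial enzymes. The other 4 genes (Farsb, Mars, Yars and Iars2) appeared only in rows that the authors joined with a neighbouring gene, and these are described apart. Lars2, the mitochondrial leucyl-tRNA synthetase, is not part of the set, because its counts were of another order (2.17 to 25.9% of all counts of a polysome library).

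Each synthetase recognises its amino acid and the matching tRNAs, activates the amino acid with ATP and transfers it to the tRNA, which then serves the ribosome. Mammalian cells charge tRNAs separately in the cytosol and in mitochondria, mostly with enzymes of separate nuclear genes; Gars (glycine) and Kars (lysine) serve both compartments from a single gene. Several cytosolic enzymes are held in the multi-synthetase complex, a large assembly with scaffold proteins, and genes of cytosolic synthetases are known targets of the transcription factor ATF4 when amino acids are short.

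Per the labels, cells of a PyMT mammary tumour model were injected into a mammary gland of female FVB mice aged 5 to 7 weeks, and the tumours were weighed after excision. They are therefore transplanted tumours and not tumours that arose in the gland. Macrophages (CD11b+ F4/80+ Ly6G- by flow sorting) were kept with cycloheximide, which holds ribosomes on mRNA. The larger part of the cells of each tumour gave mRNA with at least 3 ribosomes (polysome mRNA), and about 10% of the cells gave total mRNA. SmartSeq2 libraries were made of both, which cover whole cDNAs without strand information. The 26 libraries came from 13 tumours, 5 large (1504 to 2245 mg) and 8 small (467 to 841.8 mg), none of which had a further treatment in the labels. In the experimental batches that the labels give, batch 2 held large replicates 3 to 5 and small replicates 6 to 8, and batch 1 held large replicates 1 and 2 and small replicates 1 to 5. In bulk samples of this kind, fewer cells of a type and less RNA per cell cannot be told apart.

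Polysome libraries held 7034173 to 28257436 counts and total mRNA libraries 18018519 to 55609113. The 9 macrophage markers summed to 3006 to 44775 CPM (counts scaled to a fixed library size) in polysome libraries and to 8266 to 35097 CPM in total mRNA libraries. Markers of B cells, T cells, neutrophils, endothelial and erythroid cells each summed to at most 88.1 CPM in any library, but only 1 of 3 erythroid markers (Alas2) had a row. By contrast, the 6 fibroblast markers reached 3075 CPM and the 6 mammary epithelial markers 3987 CPM. Both of these highest sums were in the total mRNA of small replicate 7. This tumour stood apart from the others. It had the lowest macrophage marker sum in both RNA sources, and the median correlation of its libraries with others of the same RNA source was the lowest, 0.708 in polysome and 0.753 in total mRNA. It also had the highest synthetase share of all counts, 0.154% in polysome and 0.337% in total mRNA.

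Sequence around the gene starts is shown first, because a motif for amino acid shortage and an E-box were found in the cytosolic group. RefSeq promoter windows (250 bases before to 50 bases after the gene start, GRCm38.p6) were matched to 26 of the 35 genes, 13 of each class. The core of the C/EBP-ATF response element, TGATGNAA, was searched on both strands. It was in the windows of 5 of 13 cytosolic genes (Aars, Gars, Iars, Tars and Yars) and of 0 of 13 mitochondrial genes, and 4.06% of all 27025 windows held it. The E-box CACGTG was in 4 of 13 cytosolic windows (Aars, Farsb, Iars and Tars) and in 1 of 13 mitochondrial windows (Ears2), and 7.24% of all windows held it. The palindromic NRF1 motif was in 0 of 26 windows, and 0.977% of all windows held it. A match is a description of these letters and shows no binding. The core matches of Iars and Yars and the E-box matches of Tars and Ears2 did not end before the gene start and are not printed. The stretches around the other matches are printed 5′ to 3′ on the strand of the gene, with the match in capitals. The first 3 hold the response element core, which reads as TGATGNAA on the opposite strand; the others hold the E-box.
Aars, chr8:111033704-111033763, + strand: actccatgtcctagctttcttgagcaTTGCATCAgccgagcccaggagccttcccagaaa
Gars, chr6:55037945-55038000, + strand: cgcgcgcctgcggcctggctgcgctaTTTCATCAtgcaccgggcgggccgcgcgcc
Tars, chr15:11399659-11399699, - strand: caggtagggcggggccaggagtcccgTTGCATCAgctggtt
Aars, chr8:111033670-111033727, + strand: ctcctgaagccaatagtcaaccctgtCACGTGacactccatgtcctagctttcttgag
Farsb, chr1:78488905-78488962, - strand: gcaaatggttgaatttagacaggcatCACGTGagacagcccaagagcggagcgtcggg
Iars, chr13:49682035-49682092, + strand: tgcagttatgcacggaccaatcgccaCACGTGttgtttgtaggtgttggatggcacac
In Aars the matches lay close together, the E-box starting 146 bases and the response element core 112 bases before the gene start. The core started 30 bases before the start of Gars and 15 bases before that of Tars. These starts are those of RefSeq. The GENCODE record of Aars begins further upstream, at position 111033144 of chromosome 8, so that both Aars stretches lie inside it, and the last bases of the Tars stretch lie inside the GENCODE record of Tars.

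In total mRNA the cytosolic enzymes were the more abundant class. Their counts made up 0.0746 ± 0.0175% of all counts in polysome libraries and 0.162 ± 0.0473% in total mRNA libraries (SD, n = 13 each), whereas the 14 mitochondrial enzymes made up 0.0246 ± 0.00631% in polysome libraries and 0.0264 ± 0.0056% in total mRNA libraries. Levels of different genes were compared per kb of the transcript with the longest coding sequence in GENCODE. On this scale, the median over the 17 cytosolic genes was 13.4 CPM per kb in polysome mRNA and 34.7 CPM per kb in total mRNA. Over the 14 mitochondrial genes it was 4.57 CPM per kb in polysome mRNA and 4.82 CPM per kb in total mRNA. Sars, the seryl-tRNA synthetase, ranked 1 of 31 in both RNA sources. Nars, the asparaginyl-tRNA synthetase, ranked 2 in total mRNA and 9 in polysome mRNA. Tars2, the mitochondrial threonyl-tRNA synthetase, moved the other way in rank, being 3 in polysome mRNA and 12 in total mRNA.

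**Figure D1:**
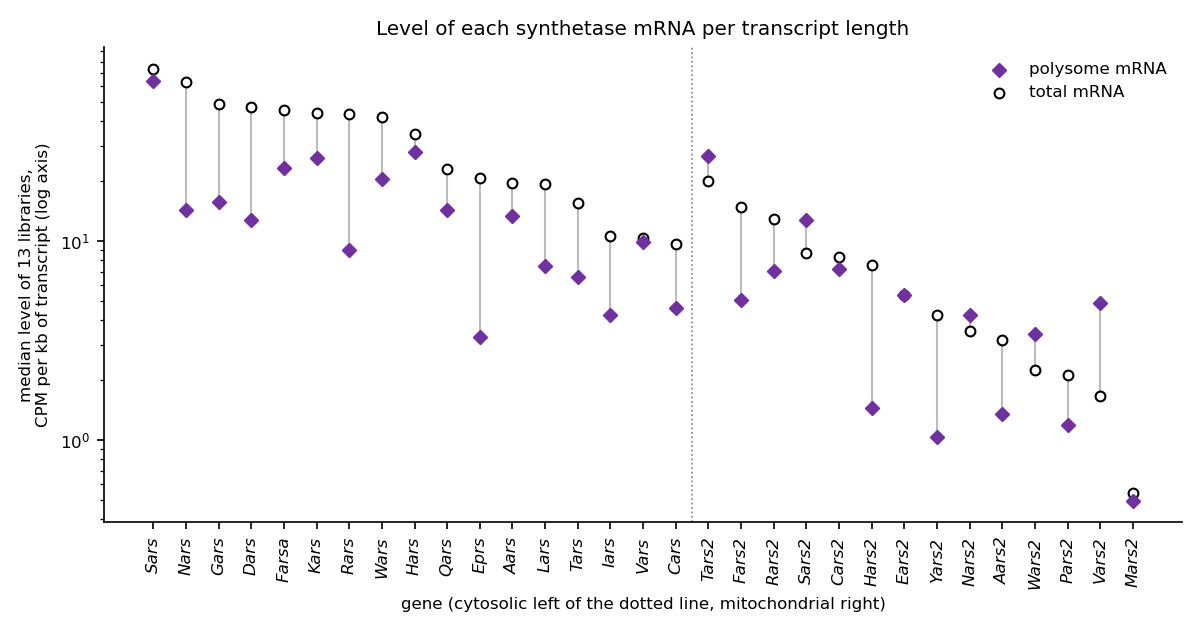
Median level over the 13 polysome libraries (filled diamonds) and the 13 total mRNA libraries (open circles) of each synthetase, in CPM per kb of transcript on a log axis, with cytosolic enzymes left of the dotted line and mitochondrial enzymes right of it. The class medians are 13.4 in polysome and 34.7 in total mRNA for the cytosolic enzymes, and 4.57 in polysome and 4.82 in total mRNA for the mitochondrial ones.

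The first comparison asked which synthetase mRNAs were over- or under-represented on polysomes. Cytosolic enzymes were lower in polysome than in total mRNA: 13 of 17 fell, 0 rose and 4 did not pass the test. Among mitochondrial enzymes 6 of 14 fell, 1 rose and 7 did not pass. The test was edgeR's quasi-likelihood F-test over 12109 genes with the tumour as a block and a Benjamini-Hochberg adjusted p below 0.05, and all 31 members passed its filter on low counts. In the same fit 34.0% of all genes fell and 22.6% rose. The median log2 fold of polysome against total mRNA was −1.11 over the 17 cytosolic enzymes, 0.0031 over the 14 mitochondrial enzymes and −0.34 over all genes tested. Without small replicate 7, the tumour that stood apart, 12 cytosolic enzymes fell and 0 rose, and 5 mitochondrial enzymes fell and 2 rose. Markers of other cell types moved in the same comparison: 3 of 5 mammary epithelial markers tested fell and 0 rose (median −1.45), and 3 of 6 fibroblast markers fell and 0 rose (median −0.80). Of 9 macrophage markers 4 fell and 2 rose (median −0.38). The part of these cells in the synthetase folds was not tested. These folds are relative to the library, since CPM are shares of the counts.

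The 5 lowest adjusted p-values belonged to cytosolic enzymes. Levels are given as TMM-scaled CPM, lowest, median and highest of the 13 tumours. Nars had 18.4, 39.3 and 91.7 CPM in polysome mRNA, against 117, 174 and 329 CPM in total mRNA. The highest polysome library lay below the lowest total mRNA library, and the log2 fold was −2.15 ± 0.20 (SE, adjusted p = 2.82e-09). Eprs, the bifunctional enzyme for glutamate and proline, had 6.67, 16.2 and 46.8 CPM in polysome mRNA, against 57.4, 102 and 137 CPM in total mRNA. Again the ranges did not overlap, with a log2 fold of −2.44 ± 0.23 (adjusted p = 3.99e-09). Dars, the aspartyl-tRNA synthetase, had 17.8, 27.7 and 45.7 CPM in polysome mRNA, against 72.6, 103 and 198 CPM in total mRNA. Its ranges did not overlap either (log2 fold −1.86 ± 0.20, adjusted p = 4.32e-08). Rars, which charges arginine tRNAs, had 2.98, 18.98 and 63.6 CPM in polysome mRNA, against 54.6, 92.0 and 205 CPM in total mRNA. The ranges overlapped narrowly, but it was lower in polysome mRNA in 13 of 13 tumours (−2.32 ± 0.26, adjusted p = 7.38e-08). Tars, for threonine, had 6.31, 26.3 and 52.5 CPM in polysome mRNA, against 49.9, 61.9 and 114 CPM in total mRNA. It too was lower in 13 of 13 tumours, with a small overlap of the ranges (−1.48 ± 0.21, adjusted p = 2.14e-06). How many of all genes had ranges apart, or the same sign in 13 of 13 tumours, was not counted.

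Enzymes with further roles or partners followed. Wars, the tryptophanyl-tRNA synthetase and an interferon-induced gene, had 27.3, 37.6 and 60.4 CPM in polysome mRNA, against 46.4, 76.9 and 176 CPM in total mRNA. The ranges overlapped although the difference had the same sign in 13 of 13 tumours (log2 fold −1.23 ± 0.22, adjusted p = 3.67e-05). Gars, the glycyl enzyme of both compartments, had 24.7, 37.5 and 65.6 CPM in polysome mRNA, against 27.3, 116 and 173 CPM in total mRNA. It was lower in 12 of 13 tumours (−1.30 ± 0.20, adjusted p = 4.64e-06). Kars, the lysyl enzyme of both compartments, did not pass the test: it had 22.8, 57.6 and 118 CPM in polysome mRNA, against 22.9, 96.6 and 128 CPM in total mRNA, with a log2 fold of −0.18 ± 0.21 (adjusted p = 0.480). Farsa encodes the catalytic alpha subunit of the phenylalanyl enzyme and had 16.6, 42.5 and 148 CPM in polysome mRNA, against 45.6, 83.2 and 119 CPM in total mRNA. It was lower in 12 of 13 tumours (−0.93 ± 0.20, adjusted p = 0.0004).

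The remaining cytosolic enzymes that fell were Cars (−1.74), Iars (−1.11), Lars (−1.08), Aars (−0.87) and Hars (−0.54). Qars (−0.20), Sars (−0.13) and Vars (0.21) did not pass the test, and Vars was the 1 cytosolic enzyme with a positive fold. Of the 13 cytosolic calls, that of Hars was lost when large replicate 1, large replicate 3 or small replicate 7 was left out (highest adjusted p 0.103); leaving out any other single tumour, or any tumour for the other 12 enzymes, ended no call. By structural class, 5 of 7 enzymes with a class I catalytic domain and 7 of 9 with a class II domain fell, and Eprs, which has both, fell as well. Within the multi-synthetase complex 5 of 7 synthetases fell (Dars, Eprs, Iars, Lars and Rars). These counts by class and complex are close to the 13 of 17 of all cytosolic enzymes, where 34.0% of all genes fell.

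**Figure D2:**
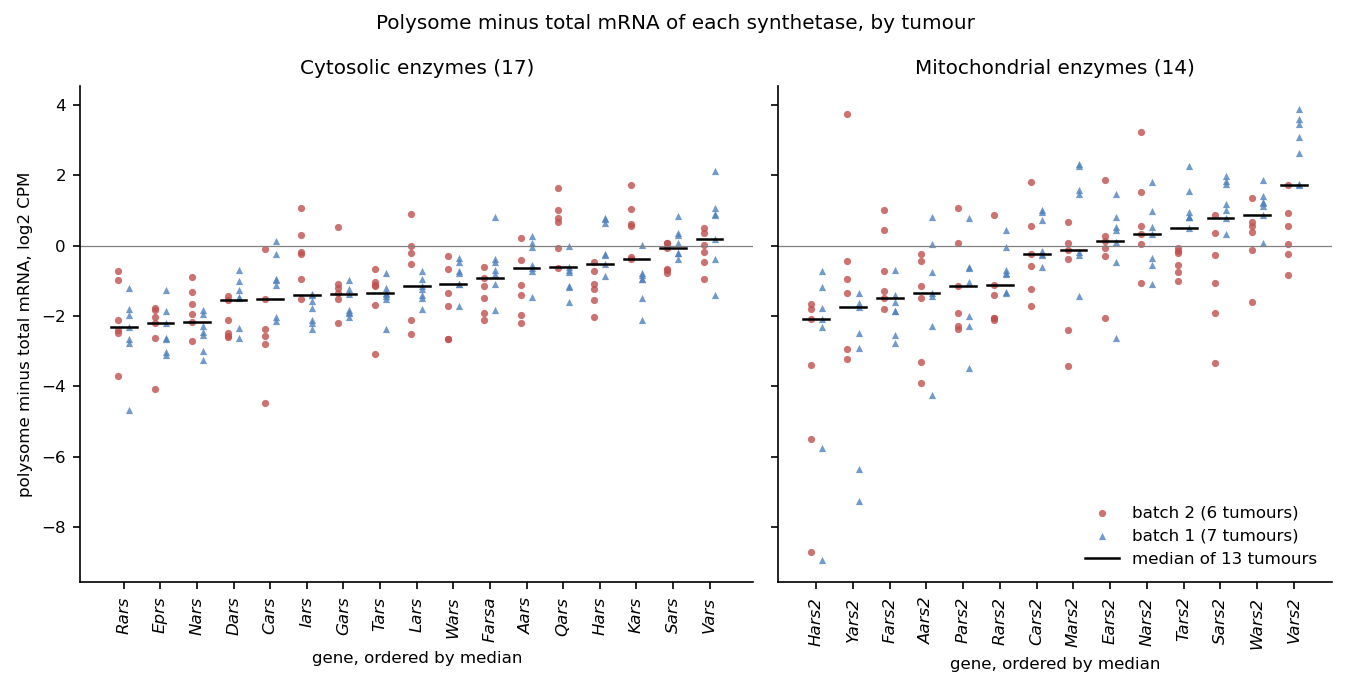
Polysome minus total mRNA in log2 CPM for each synthetase and tumour, cytosolic enzymes in the left panel and mitochondrial enzymes in the right, with red circles for the 6 tumours of batch 2, blue triangles for the 7 of batch 1 and a bar at the median of 13. All 13 tumours lie below 0 for Nars, Eprs, Dars, Rars, Tars and Wars and for mitochondrial Hars2; the lowest points of Hars2 and Yars2 come from polysome libraries with 0 counts.

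Among mitochondrial enzymes the directions were mixed. Vars2, the valyl enzyme, was the 1 member that rose: it had 9.58, 21.7 and 78.3 CPM in polysome mRNA, against 2.40, 7.39 and 24.1 CPM in total mRNA. It was higher in polysome mRNA in 11 of 13 tumours, with overlapping ranges (log2 fold 1.66 ± 0.28, adjusted p = 2.17e-05). GENCODE places 465 exonic bases of Vars2 on the strand opposite to exons of Gm20483, and unstranded reads there cannot be told apart. Hars2, the histidyl enzyme, had 0, 4.84 and 15.3 CPM in polysome mRNA, against 13.1, 25.2 and 39.6 CPM in total mRNA. It was lower in 13 of 13 tumours (−3.01 ± 0.58, adjusted p = 9.65e-05). Its polysome count was 0 in large replicate 5, which allows up to 0.210 CPM, and in small replicate 1, which allows up to 0.296 CPM (3 counts per library, counting error only). The others that fell were Yars2 (−1.84), Aars2 (−1.30), Pars2 (−1.12), Fars2 (−1.10) and Rars2 (−1.07), the enzymes for tyrosine, alanine, proline, phenylalanine and arginine. The call of Pars2 (adjusted p = 0.0413) was lost in 8 of 13 fits that each left out 1 tumour (large replicates 1, 3 and 4 and small replicates 1, 2, 3, 6 and 7), with adjusted p up to 0.158, and that of Yars2 was lost without large replicate 1 and without large replicate 5 (up to 0.0548). Wars2 (0.55), Nars2 (0.48), Tars2 (0.39), Sars2 (0.28), Cars2 (0.09), Ears2 (0.02) and Mars2 (−0.01) did not pass the test.

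The same contrast was seen within single tumours. The median difference of polysome and total mRNA over the cytosolic enzymes was −1.96, −1.19 and −0.53 log2 CPM (lowest, median and highest tumour), negative in 13 of 13. Over the mitochondrial enzymes it was −1.10, −0.23 and 0.89, negative in 10 of 13. Over all genes tested it was −0.44, −0.21 and 0, negative in 12 of 13, so the sign alone does not set a class apart. The cytosolic median was below the mitochondrial median in 12 of 13 tumours, by 0.91 ± 0.59 on average (SD, n = 13). The exception was small replicate 6, where cytosolic minus mitochondrial was 0.13, and in small replicate 8 it was only −0.025. By batch this difference was −1.21 ± 0.49 in batch 1 (SD, n = 7) and −0.55 ± 0.52 in batch 2 (SD, n = 6). No test was made of these class medians, since the genes had been grouped with results of these data known.

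For 9 amino acids both enzymes had a row of their own, so that the cytosolic to mitochondrial ratio could be taken within each library. This comparison was added after the data had been seen. It was tested over the 13 tumours with a two-sided exact permutation test that flips the sign of each tumour's difference (smallest possible p 0.000244), with p-values adjusted over the 9 pairs. The ratio fell on polysomes for 6 amino acids and rose for 1. For asparagine, the log2 ratio of Nars to Nars2 was 1.32 ± 1.21 in polysome mRNA and 3.96 ± 1.02 in total mRNA (SD, n = 13 each), lower in 12 of 13 tumours (exact permutation p = 0.000488, adjusted p = 0.000879). For valine, that of Vars to Vars2 was 0.85 ± 0.69 in polysome mRNA and 2.37 ± 0.83 in total mRNA, lower in 13 of 13 tumours (exact permutation p = 0.000244, adjusted p = 0.000879), although Vars itself did not pass the test. For threonine, Tars to Tars2 had a log2 ratio of −1.46 ± 0.98 in polysome mRNA and 0.36 ± 0.76 in total mRNA, so that the mitochondrial transcript had the higher count on polysomes. The total mRNA ratio of this pair was 0.75 ± 0.61 in batch 1 (SD, n = 7) and −0.09 ± 0.69 in batch 2 (SD, n = 6). This pair, that of tryptophan (difference −1.89 ± 0.98), that of cysteine (−1.63 ± 1.93) and that of arginine (−1.34 ± 1.29) were lower with adjusted p between 0.000879 and 0.00722.

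Histidine went the other way. The log2 ratio of Hars to Hars2 was 4.79 ± 2.71 in polysome mRNA and 1.79 ± 0.72 in total mRNA, higher in 13 of 13 tumours (exact permutation p = 0.000244, adjusted p = 0.000879). Hars and Hars2 lie head to head on chromosome 18 and share 195 exonic bases on opposite strands, where unstranded reads cannot be told apart. The pairs of alanine (0.75 ± 1.71, exact permutation p = 0.142, adjusted p = 0.160) and serine (−0.37 ± 1.26, p = 0.305, adjusted p = 0.305) did not pass. Aars also shares 1326 exonic bases with Exosc6 on the same strand. On opposite strands, Nars2 shares 284 exonic bases with C230038L03Rik, Cars2 shares 422 with Naxd and Cars shares 211 with Gm15580. The same limit holds for these. In batch 2 alone 0 of 9 pairs passed. There 6 tumours allow no exact permutation p below 0.0312, and the valine and histidine pairs at that limit had an adjusted p of 0.1125. With adjustment over 9 pairs, this limit leaves a pair little room to pass, so the count says little about batch 2. In batch 1 alone 6 were lower and 1 higher. These were not the same pairs: in batch 1 the serine pair passed (−1.16 ± 0.44, lower in 7 of 7 tumours, exact permutation p = 0.0156, adjusted p = 0.0234) and the cysteine pair did not (exact permutation p = 0.0469, adjusted p = 0.0527).

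**Figure D3:**
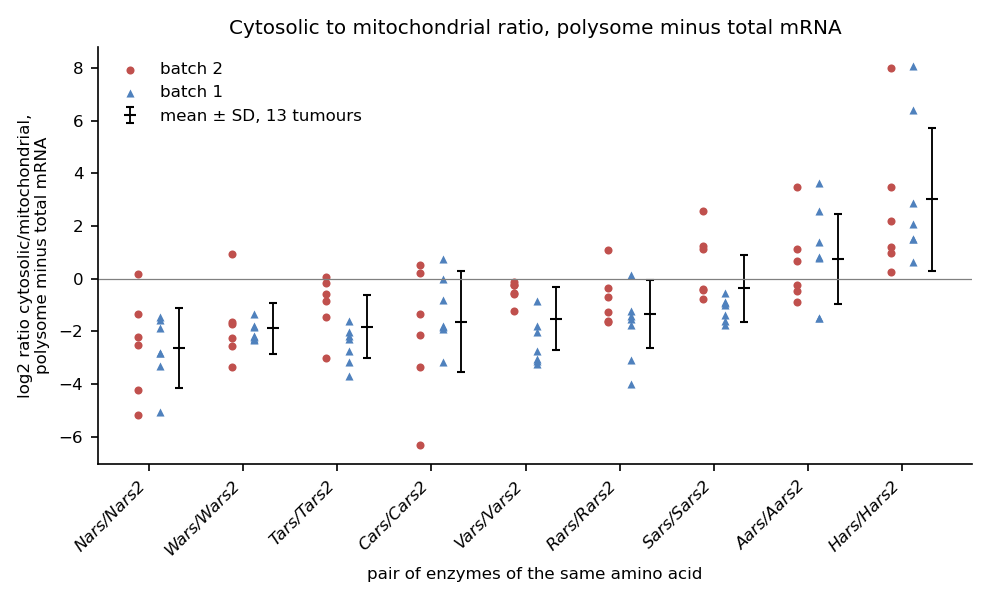
Log2 ratio of a cytosolic enzyme to the mitochondrial enzyme of the same amino acid, polysome minus total mRNA, for 9 pairs, with 1 point per tumour (red circles batch 2, blue triangles batch 1) and black bars for the mean ± SD of 13 tumours. Means run from −2.64 for Nars/Nars2 to 3.01 for Hars/Hars2. The highest points of Hars/Hars2 come from polysome libraries with 0 counts of Hars2.

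The polysome against total fold of some members differed between the batches. For this difference (batch 2 minus batch 1), 3 of 17 cytosolic enzymes were higher and 1 lower, and 0 of 14 mitochondrial enzymes were higher and 3 lower; over all 12109 genes 10.5% were higher and 6.95% lower. The 3 cytosolic enzymes that were higher, Iars, Qars and Kars, are among the 7 synthetases of the multi-synthetase complex that were tested. The other 4 (Dars, Eprs, Lars and Rars) were not called, with adjusted p from 0.349 to 0.934 in the same edgeR test. Qars, which charges glutamine tRNAs, had 23.9, 41.1 and 58.9 CPM in batch 2 polysome mRNA, against 13.2, 23.4 and 61.9 CPM in batch 2 total mRNA. In batch 1 it had 21.8, 38.3 and 70.7 CPM in polysome mRNA, against 64.8, 71.0 and 82.9 CPM in total mRNA. Its polysome ranges overlapped between the batches and its total mRNA ranges did not, and the difference of the folds was 1.52 ± 0.41 (adjusted p = 0.0114). Iars, for isoleucine, had a fold of −0.24 ± 0.34 in batch 2 alone and −1.76 ± 0.28 in batch 1 alone, a difference of 1.71 ± 0.43 (adjusted p = 0.00742). Kars had a fold of 0.56 ± 0.33 in batch 2 alone and −0.79 ± 0.25 in batch 1 alone, a difference of 1.45 ± 0.41 (adjusted p = 0.0165), and the fold over all tumours of −0.18 was between them. The call of Qars was lost without small replicate 6 (1.30, adjusted p = 0.0518) and that of Kars without small replicate 7 (1.22, adjusted p = 0.0658).

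Hars had the reverse pattern, with a fold of −1.16 ± 0.29 in batch 2 alone and 0.18 ± 0.26 in batch 1 alone (difference −1.29 ± 0.39, adjusted p = 0.0240). The call of Hars was lost when large replicate 2 or small replicate 2, 4 or 6 was left out (adjusted p up to 0.0778). Of the mitochondrial enzymes, Tars2 had 35.1, 52.0 and 71.6 CPM in batch 2 polysome mRNA, against 39.4, 78.1 and 108 CPM in batch 2 total mRNA. In batch 1 it had 35.5, 69.0 and 239 CPM in polysome mRNA, against 20.1, 42.1 and 49.5 CPM in total mRNA. It was lower on polysomes in 6 of 6 tumours of batch 2 and higher in 7 of 7 tumours of batch 1 (difference −1.70 ± 0.36, adjusted p = 0.00166). Vars2 had folds of 0.39 ± 0.44 in batch 2 alone and 3.07 ± 0.38 in batch 1 alone (difference −2.56 ± 0.55, adjusted p = 0.00221), so the rise of Vars2 was called in batch 1 and not in batch 2. Sars2, the mitochondrial seryl enzyme, had −0.83 ± 0.52 in batch 2 alone and 1.40 ± 0.31 in batch 1 alone (difference −2.25 ± 0.60, adjusted p = 0.0108).

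Fitted alone, batch 2 gave 11 of 17 cytosolic enzymes lower and 0 higher, and 3 of 14 mitochondrial enzymes lower and 0 higher, where 15.9% of 12081 genes fell and 14.0% rose. Batch 1 gave 13 of 17 cytosolic enzymes lower and 0 higher, and 3 of 14 mitochondrial enzymes lower and 4 higher (Sars2, Tars2, Vars2 and Wars2), where 27.9% of 12603 genes fell and 21.3% rose. The cytosolic calls were not those of the fit over both batches. In batch 1 Farsa (−0.37 ± 0.27, adjusted p = 0.267) and Hars did not pass, and Kars (adjusted p = 0.0115) and Qars (adjusted p = 0.0127) did. In batch 2 Lars (−0.74 ± 0.39, adjusted p = 0.162) and Iars (adjusted p = 0.638) did not pass. The median fold over the mitochondrial enzymes was −0.72 in batch 2 and 0.27 in batch 1, and that over the cytosolic enzymes was −1.16 in batch 2 and −0.89 in batch 1. Lars2 took 0.00304 to 0.00658% of the total mRNA counts in small replicates 6 and 7 and large replicate 3, all of batch 2, and 0.0502 to 0.902% in the other 10 tumours. Without these 3 tumours 12 cytosolic enzymes fell and 0 rose, 3 mitochondrial enzymes fell and 2 rose, and the batch difference was called for Tars2 alone.

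**Figure D4:**
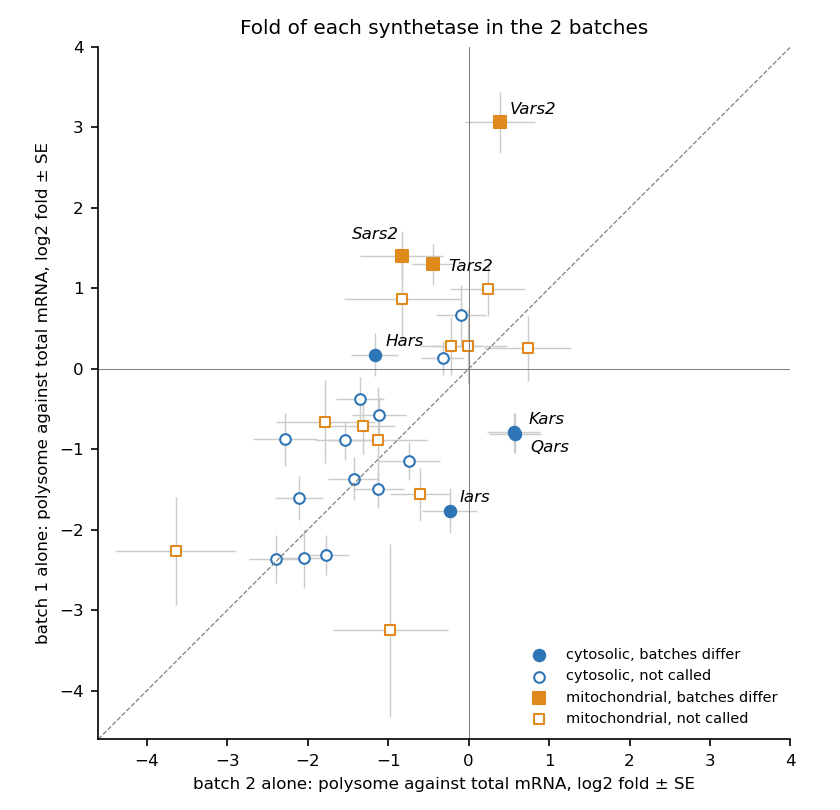
Log2 fold of polysome against total mRNA (± SE) of each synthetase fitted in batch 2 alone (horizontal axis) and in batch 1 alone (vertical axis), blue circles for cytosolic and orange squares for mitochondrial enzymes; filled and named symbols are members whose fold differed between batches, and the dashed line marks equal folds. Tars2, Sars2 and Vars2 lie above the line, with differences of −1.70, −2.25 and −2.56 (batch 2 minus batch 1), and Iars, Qars and Kars below it.

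The study's design compares tumours by size, and here no synthetase passed the test. In edgeR 0 of 31 members were called in polysome association of large against small tumours, in total mRNA or in polysome mRNA, where 0% of all genes were called in each; limma-voom and DESeq2 also called 0 members. At an unadjusted p below 0.05 there were 2 members in polysome association, 2 in total mRNA and 3 in polysome mRNA. At that limit, 6.17% of all 12109 genes were higher and 5.27% lower in polysome association. In total mRNA 1.46% of 11671 genes were higher and 3.15% lower, and in polysome mRNA 7.20% of 10933 genes were higher and 5.26% lower. The members nearest the threshold are therefore given as values. Fars2, the mitochondrial phenylalanyl enzyme, had 10.4, 17.4, 24.4, 41.8 and 42.5 CPM in polysome mRNA of the 5 large tumours, against 4.32, 9.40 and 22.4 CPM (lowest, median and highest) in that of the 8 small tumours. The ranges overlapped, and the log2 fold was 1.26 ± 0.40 in polysome mRNA (adjusted p = 0.248) and 1.18 ± 0.49 in polysome association (adjusted p = 0.366). Fars2 shares 501 exonic bases with Nrn1 and 115 with Lyrm4 on opposite strands, where unstranded reads cannot be told apart. Aars2, the mitochondrial alanyl enzyme, had 3.70, 3.81, 9.04, 9.56 and 14.1 CPM in polysome mRNA of the large tumours, against 0.317, 3.01 and 7.38 CPM in that of the small tumours. Its fold in polysome association was 2.00 ± 0.80 (adjusted p = 0.358), also with overlapping ranges.

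In polysome mRNA the next members were Aars (−0.63 ± 0.27, adjusted p = 0.354) and Rars2 (−0.81 ± 0.38, adjusted p = 0.395), and in polysome association Wars2 (−1.09 ± 0.54, adjusted p = 0.443). In total mRNA the 3 lowest p-values belonged to cytosolic enzymes of the multi-synthetase complex, Iars (0.74 ± 0.30), Qars (0.77 ± 0.32) and Lars (0.68 ± 0.33), each with an adjusted p of 0.865. For Iars, Qars and Lars in turn, these folds were 1.23, 1.41 and 1.10 in batch 2 alone, and 0.26, 0.10 and 0.30 in batch 1 alone. Summed fibroblast markers were 9.93 to 199 CPM in polysome and 90.6 to 355 CPM in total mRNA of large tumours, and 70.0 to 2480 CPM in polysome and 51.4 to 3075 CPM in total mRNA of small tumours. Their part in these values was not tested.

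Properties that the choice of genes did not use were set beside the folds, as descriptions across genes, which are not independent replicates. Over the 31 members, Spearman's rho between the GC content of the transcript and the polysome against total fold was 0.32, against 0.34 over 11091 genes. It was 0.66 over the 17 cytosolic enzymes and 0.07 over the 14 mitochondrial enzymes. The length of the coding sequence had a rho of −0.04 over the members and 0.10 over all genes, and the length of the transcript had one of 0.07 over the members and 0.20 over all genes. The genes with the response element core in their promoter window and a row of their own had folds of −1.48 (Tars), −1.30 (Gars), −1.11 (Iars) and −0.87 (Aars), within the range of the other cytosolic enzymes.

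The 4 members in joined rows cannot be divided from their neighbours. The row of Ddit3 and Mars, the methionyl enzyme, had a fold of −1.77 ± 0.22 (adjusted p = 3.72e-07), and that of Farsb, the beta subunit of the phenylalanyl enzyme, and Sgpp2 one of −0.94 ± 0.21 (adjusted p = 0.000599). The row of C77080 and Yars, the tyrosyl enzyme, had −0.68 ± 0.18 (adjusted p = 0.00269), and that of Iars2 and Rab3gap2 had −0.44 ± 0.21 (adjusted p = 0.0838). The first 3 were lower in polysome mRNA in 13 of 13 tumours. Lars2 had 20657, 95666 and 246304 CPM in polysome mRNA, against 36.9, 4326 and 8026 CPM in total mRNA, a log2 fold of 6.02 ± 0.50 (adjusted p = 7.65e-10).

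Genes that work with the synthetases showed both directions in polysome against total mRNA. Their counts are to be read beside the 34.0% of all genes that fell and the 22.6% that rose. Of the 2 scaffold genes of the multi-synthetase complex with a row, Aimp1 was lower (−1.22 ± 0.29, adjusted p = 0.000761) and Eef1e1 was higher (1.13 ± 0.21, adjusted p = 5.62e-05). Eef1e1 had 34.3, 54.8 and 93.1 CPM in polysome mRNA, against 13.1, 24.3 and 42.6 CPM in total mRNA, higher in 13 of 13 tumours. Of 10 genes for cytosolic proofreading, selenocysteine tRNA and elongation factor 1, 4 fell, near the share of all genes, and 0 rose. Their folds also differed between batches (batch 2 minus batch 1): 4 of 10 were higher and 0 lower, where 10.5% of all genes were higher and 6.95% lower. The 4 were elongation factor 1 genes, with the largest difference in Eef1b2 (4.44 ± 0.52, adjusted p = 1.26e-05). Of 13 mitochondrial translation partners 8 fell, among them Mto1, a mitochondrial tRNA modifying enzyme (−3.09), and Mtrf1, a mitochondrial release factor gene (−3.76). Tufm, the mitochondrial elongation factor that delivers charged tRNAs, was the 1 that rose (1.15 ± 0.20, adjusted p = 3.31e-05), with a fold that differed between batches by −1.65 ± 0.40 (batch 2 minus batch 1, adjusted p = 0.00553). In tRNA maturation 6 of 11 genes fell and 2 rose; Rpp30 of RNase P (−2.87) was among those that fell.

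In the amino acid response through GCN2 and ATF4, 4 of 13 genes fell and 3 rose, about the shares of all genes. Cebpb, a C/EBP transcription factor, rose (4.10 ± 0.42, adjusted p = 1.3e-08), as did Gcn1l1, the activator of GCN2 (1.50 ± 0.25), and Psph, the last enzyme of serine synthesis, fell (−2.49 ± 0.41). Of 11 amino acid transporters 4 rose and 3 fell: Slc36a1, a lysosomal amino acid transporter (2.80 ± 0.23), and Slc7a5, the light chain of the large neutral amino acid transporter (2.00 ± 0.28), rose, and Slc3a2, the heavy chain that pairs with it (−1.09 ± 0.18), fell. The folds of Gcn1l1 (−2.14 ± 0.48, adjusted p = 0.00299), Slc7a5 (−1.86 ± 0.55, adjusted p = 0.0190) and Slc3a2 (−1.37 ± 0.36, adjusted p = 0.00924) also differed between batches (batch 2 minus batch 1).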

How the data were processed

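The authors deposited, for each of 26 libraries, whole-number read counts per gene in 19549 rows, 830 of which join overlapping genes, and a column of log2 values. The build mm10, limma, HISAT2 and HISAT are listed, per the submitters' processing notes, which give no versions; how reads were counted is not given in the sources used here. The deposited log2 values equal log2 CPM up to 1 constant per library (largest deviation 5.1e-14 over 10472 genes) and were not used further. The counts were tested with edgeR 4.0.16 in R 4.3.3 (filterByExpr, TMM scaling, robust quasi-likelihood F-test, Benjamini-Hochberg adjustment over all genes tested, threshold 0.05). The SE given with an edgeR log2 fold was derived from the test, as the absolute fold divided by the square root of its F statistic. Polysome against total mRNA was fitted to all 26 libraries, blocked by tumour, with RNA source by batch and by size class as terms that weight both batches and both size classes equally; size was also tested in each RNA source separately, adjusting for batch. Tumours were divided at 1000 mg. Per the labels, a tumour's polysome and total mRNA came from the same sorted cells, which gives the pairing; their deviations from the group means had a median correlation of 0.249 (lowest 0.0372), against −0.0167 between tumours. Each tumour is taken as a separate animal, so p-values measure the spread between tumours.

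For differences within a tumour, a prior count of 1 was added before log2 CPM were taken. Alternatives were RLE scaling, library sizes without Lars2, no filter on low counts or a mean of at least 10 CPM, limma-voom (limma 3.58.1), DESeq2 1.42.0, no replicate block, each batch alone, tumour weight in place of size class, and each tumour left out. Transcript lengths, exon overlaps and coordinates were taken from GENCODE (GRCm38) and promoter windows from RefSeq (GRCm38.p6). The scripts were tested on simulated data. Named genes were the 5 members in each direction with the lowest adjusted p, the 3 with the lowest p where fewer than 3 passed, Gars, Kars, Eprs, Wars and Farsa, the pairs, and up to 3 genes of each accompanying list. Members, lists and tests were chosen with earlier results of these data known. The test of pairs and the set without 3 tumours were added after the data had been examined. SmartSeq2 reads carry no molecular identifiers, so limits for counts of 0 cover counting error only.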

Additional observations from a re-analysis of the deposited data

Results flagged for a closer look

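In 2 of 66 groups of tumours, 1 tumour lay far from the others in the difference of polysome and total mRNA; chance flags about 1 in 20 groups. For Aars in the small tumours this was small replicate 7, with −2.21 log2 CPM, where the nearest of the others had −0.62. For Yars2 in the small tumours it was small replicate 5, with −6.35, where the nearest of the others had −3.21; its polysome count of Yars2 was 0.

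The polysome against total fold differed between batches (batch 2 minus batch 1, edgeR test of the difference) for 7 members. Over all 12109 genes 10.5% were higher and 6.95% lower in this test. The difference was 1.71 for Iars, 1.52 for Qars, 1.45 for Kars and −1.29 for Hars among cytosolic enzymes, and −2.56 for Vars2, −2.25 for Sars2 and −1.70 for Tars2 among mitochondrial enzymes. Without the 3 tumours of low Lars2 share only Tars2 kept its call.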

How the results depend on the processing

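In polysome against total mRNA, 0 cytosolic enzymes were called higher under each setting run, and 11 to 13 were called lower. Mitochondrial enzymes called higher (1 in the fit as reported) were 3 with RLE scaling, DESeq2 and limma-voom, 2 without Lars2 in the library sizes, with a mean of at least 10 CPM, with no replicate block (the unpaired fit) and without the 3 tumours of low Lars2 share, 4 in batch 1 alone, 0 in batch 2 alone, and 1 to 2 with 1 tumour left out (2 where large replicate 1, large replicate 5 or small replicate 7 was left out). Those called lower (6) were 3 with a mean of at least 10 CPM, in each batch alone and without the 3 tumours, and 4 to 6 with 1 tumour left out. With a mean of at least 10 CPM the other 3 (Aars2, Pars2 and Yars2) were not tested, so no call was lost there. Leaving out the block ended no count of cytosolic calls. The mitochondrial median fold (0.0031) was −0.72 in batch 2 alone, −0.12 without the 3 tumours and −0.15 to 0.080 with 1 tumour left out. Kars was 0.56 in batch 2 alone and −0.29 to 0.017 with 1 tumour left out (positive without large replicate 4). Vars was −0.098 in batch 2 alone and −0.011 to 0.36 with 1 tumour left out (negative without large replicate 2).

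For the batch difference, cytosolic enzymes called higher (3) were 0 and mitochondrial enzymes called lower (3) were 1 without the 3 tumours, and cytosolic enzymes called lower (1) were 2 with DESeq2, 0 without the 3 tumours and 0 to 2 with 1 tumour left out. In batch 2 alone 0 pairs were lower and 0 higher, though the few tumours there leave a pair little room to pass after adjustment. The Sars pair was 0.55 in batch 2 alone. The cause of these changes was not tested. In the 3 comparisons of size 0 members were called under each alternative. The polysome library of a tumour held fewer counts than its total mRNA library, except in large replicate 2 (20699272 against 20686329). In addition, 2 mitochondrial enzymes had polysome libraries with a count of 0.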
